A study of Mus musculus with 23 samples.

Results

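The mRNAs of 10 ligands through which dendritic cells (DCs) signal to T cells were followed in sorted spleen DCs of wild type Balb/C mice. The members were chosen by name, as costimulatory and inhibitory T-cell ligands, and all 10 were found by symbol among the 47729 genes of the count table. Each library was made from 1 of 4 populations gated on CD8 and CD172, called DC1a (CD8hi CD172-), DC1b (CD8Int CD172+), DC2 (CD8lo CD172hi) and DC3 (CD8- CD172lo). Untreated mice gave pools 1 and 2 of each population, which makes 8 libraries. TLI treated mice gave pools 1 to 4, which makes 15 libraries because the samples hold no DC2 library of pool 2. The labels do not spell out TLI and give no age. All untreated libraries and TLI pools 1 and 2 carry the batch label 1, and TLI pools 3 and 4 carry the batch label 2.

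A T cell that meets its antigen on a DC also reads a second set of surface proteins on that DC. CD80 and CD86 engage CD28 or CTLA-4 on the T cell, ICOSL engages ICOS, and CD40 receives CD40L from the T cell and drives NF-kB signalling in the DC. PD-L1 (Cd274) and PD-L2 (Pdcd1lg2) engage the inhibitory receptor PD-1, CD200 engages CD200R, galectin-9 (Lgals9) has been described as a ligand of TIM-3, the poliovirus receptor (Pvr) engages DNAM-1 and TIGIT, and CD83 is a surface protein of mature DCs.

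Total counts ranged from 19256447 to 36997890 per library, so that 3 counts, used here as the limit of detection, corresponded to between 0.0811 and 0.156 CPM, the counts scaled to a common library total. Intervals and limits of this kind cover counting error only. The DC1a and DC2 gates were visible in the mRNA of untreated cells. Cd8a lay between 450.3 and 468 CPM in DC1a cells and at no more than 0.61 CPM in DC2 cells. Sirpa, which encodes CD172, lay at no more than 0.27 CPM in DC1a cells and between 196 and 252 CPM in DC2 cells. For DC3, labelled CD8-, 7 markers of CD8+ DCs, Cd8a among them, summed to 2005 to 2377 CPM in untreated libraries. This sum was 2637 to 2949 CPM in DC1a, 1680 to 1733 CPM in DC1b and 427 to 464 CPM in DC2. The library labelled TLI DC1b pool 4 went against its gate, with Cd8a at 0.327 CPM. Without it, as with it, 0 members passed between TLI populations and for TLI against untreated, and 6 passed between the TLI batches. Untreated DC1b libraries also held transcripts of plasmacytoid DC markers. All 6 of these were above the limit of detection, and their summed level was 2996 to 3298 CPM, against 80.0 to 206 CPM in TLI DC1b libraries. Both TLI batch 1 pools carried transcripts of other blood cells. The summed level of 6 erythroid markers was 19288 to 133558 CPM in TLI DC3 batch 1, against 382 to 658 CPM in TLI DC3 batch 2 and 56.3 to 147 CPM in untreated DC3. All 7 T-cell markers were above the limit of detection in every TLI batch 1 library. Cd3e was at 0 in untreated DC1a, DC1b and DC3 libraries, but 3 of the 7 were above the limit in every untreated DC3 library. The 7 summed to 43.0 to 55.5 CPM in untreated DC3, against 298 to 706 CPM in TLI DC3 batch 1. In untreated DC1b they summed to 0.680 to 18.9 CPM, and in untreated DC1a and DC2 to at most 2.56 CPM. In bulk RNA, fewer cells of a type and less RNA per cell cannot be told apart.

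RefSeq promoter windows (GRCm38.p6, 250 bases before to 50 bases after the start) were held for 6 of the 10 members, namely Cd80, Icosl, Cd274, Pdcd1lg2, Cd200 and Lgals9. Cd86, Cd40, Pvr and Cd83 had no window in the table. Both windows below hold a match that the others, apart from Icosl, do not, and they belong to the member that went undetected in untreated DC1a and DC3 cells and to a member that differed between the TLI batches. The capitals mark the NF-kB consensus in Pdcd1lg2, at chr19:29410669-29410968 on the + strand, and the interferon regulatory factor motif GAAANNGAAA, read on the opposite strand, in Lgals9, at chr11:78984875-78985174 on the - strand.
Pdcd1lg2: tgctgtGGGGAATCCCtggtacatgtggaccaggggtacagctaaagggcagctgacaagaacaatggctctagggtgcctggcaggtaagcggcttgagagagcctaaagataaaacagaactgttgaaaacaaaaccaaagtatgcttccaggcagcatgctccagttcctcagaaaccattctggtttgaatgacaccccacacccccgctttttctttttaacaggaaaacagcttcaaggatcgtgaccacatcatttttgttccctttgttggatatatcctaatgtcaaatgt
Lgals9: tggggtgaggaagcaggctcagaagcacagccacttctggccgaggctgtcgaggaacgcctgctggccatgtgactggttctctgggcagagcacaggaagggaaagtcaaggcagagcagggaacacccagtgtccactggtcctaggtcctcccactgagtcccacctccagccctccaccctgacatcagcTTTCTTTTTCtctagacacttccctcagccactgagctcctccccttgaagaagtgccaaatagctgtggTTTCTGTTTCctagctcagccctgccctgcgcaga
The NF-kB match in Pdcd1lg2 begins 244 bases upstream of the start and reads as a match on both strands. The Lgals9 matches begin 55 bases upstream and at base 16 downstream. On both strands, 8.46% of 32851 windows hold the NF-kB consensus and 3.44% hold GAAANNGAAA, so these matches are descriptions of the letters and not of bound sites. Icosl also held 1 NF-kB match, 111 bases upstream, and no member's window held the STAT motif TTCNNNGAA, which 8.3% of windows hold.

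Per kilobase of exon, Cd83 and Cd86 were the most abundant members. Over the 23 libraries Cd83 averaged 401 CPM per kilobase and Cd86 99.9, whereas Lgals9 averaged 36.0, and the other members lay between 3.19 for Pdcd1lg2 and 17.2 for Cd274.

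In untreated mice, Cd80 and Cd86 were measured highest in both DC2 libraries, and 3 differences of Cd86, Cd80 and Cd40 passed the test, 1 against DC1b and 2 against DC3. Neither Cd86 (edgeR adjusted p = 0.168) nor Cd80 (0.119) passed for DC2 against DC1a. Cd86, a CD28 ligand, was measured at 724 and 951 CPM in DC2, at 419 and 398 CPM in DC1a, at 190 and 169 CPM in DC1b and at 352 and 524 CPM in DC3. Both DC2 libraries were above all the others and both DC1b libraries below them. Cd86 in DC2 was 4.66-fold higher than in DC1b (log2 fold change 2.29, SE 0.26, edgeR quasi-likelihood adjusted p = 0.0371, n = 2 against 2). In that comparison 1 of 10 members passed, beside 0.51% of all 16676 genes tested. Markers of other cells also differed between these libraries. In DC1b and DC2 in turn, B-cell markers summed to 1203 to 1489 and 252 to 299 CPM, monocyte and macrophage markers to 1734 to 2634 and 314 to 590 CPM, and the 5 dendritic cell markers, mostly Cd74 and H2-Ab1, to 24775 to 31542 and 45190 to 49981 CPM. The plasmacytoid DC markers named above were at 2996 to 3298 CPM in DC1b. The part of these cells in the Cd86 difference was not tested.

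Cd80, the other CD28 ligand, was measured at 183 and 150 CPM in DC2 and at 19.3 and 7.13 CPM in DC3. The groups did not overlap, and DC3 cells were 12.6-fold lower (log2 fold change -3.70, SE 0.57, edgeR adjusted p = 0.0483). Its level was 28.3 and 43.2 CPM in DC1a and 18.9 and 22.2 CPM in DC1b. Cd40 was measured at 100.1 and 82.3 CPM in DC2 and at 8.01 and 5.52 CPM in DC3, again without overlap, which is 13.5-fold lower in DC3 (log2 fold change -3.79, SE 0.56, edgeR adjusted p = 0.0448). DC1a cells overlapped DC2 cells, at 72.3 and 105 CPM, and DC1b cells held 37.6 and 14.4 CPM. In DC3 against DC2, 2 of 10 members passed, both lower, beside 1.01% of all genes. In DC3 libraries NK-cell markers summed to 220 to 396 CPM, against 0.407 to 0.883 CPM in DC2, B-cell markers to 490.1 to 2045 CPM, and dendritic cell markers to 21656 to 29130 CPM. Their part in the Cd80 and Cd40 differences was not tested.

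These 3 calls rested on 2 libraries a group. With the pool, which the labels give as a set of mice shared by the 4 populations, as a block, none of them passed (adjusted p = 0.0678 for Cd86, 0.0817 for Cd40 and 0.0992 for Cd80). The Cd80 call was also lost whenever any of the 8 libraries was left out. Cd86 and Cd40 kept their calls in 2 of the 8 such fits each, with adjusted p values up to 0.182 and 0.184.

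**Figure D1:**
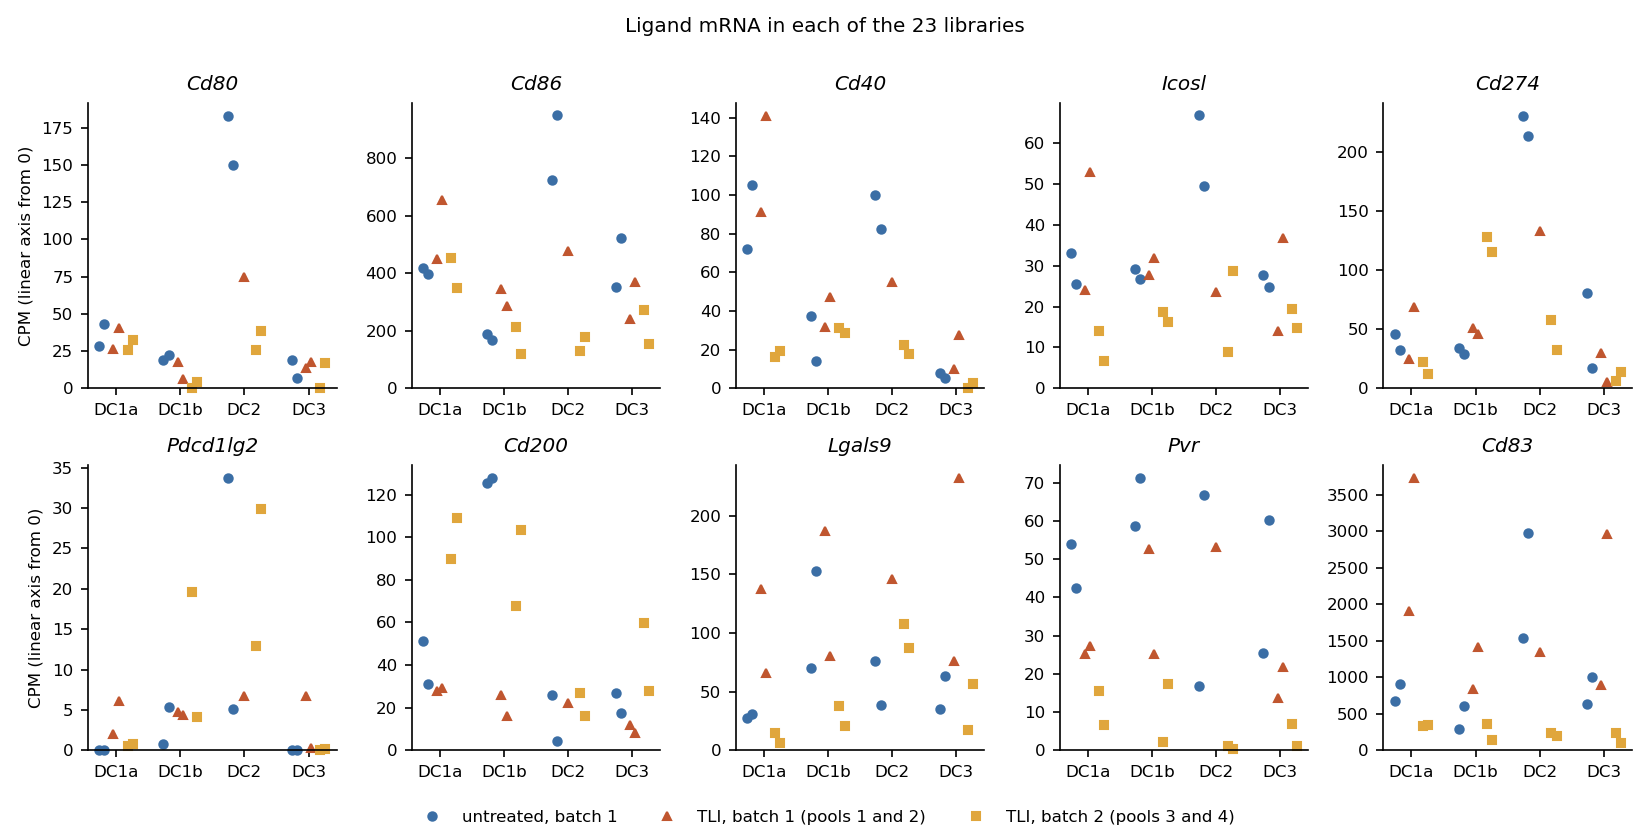
CPM of each ligand (linear axes from 0) by population, with 1 point per library, for untreated mice, TLI batch 1 and TLI batch 2. Untreated DC2 libraries lie highest for Cd80 and Cd274, and untreated DC1b libraries lie highest for Cd200.

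**Figure D2:**
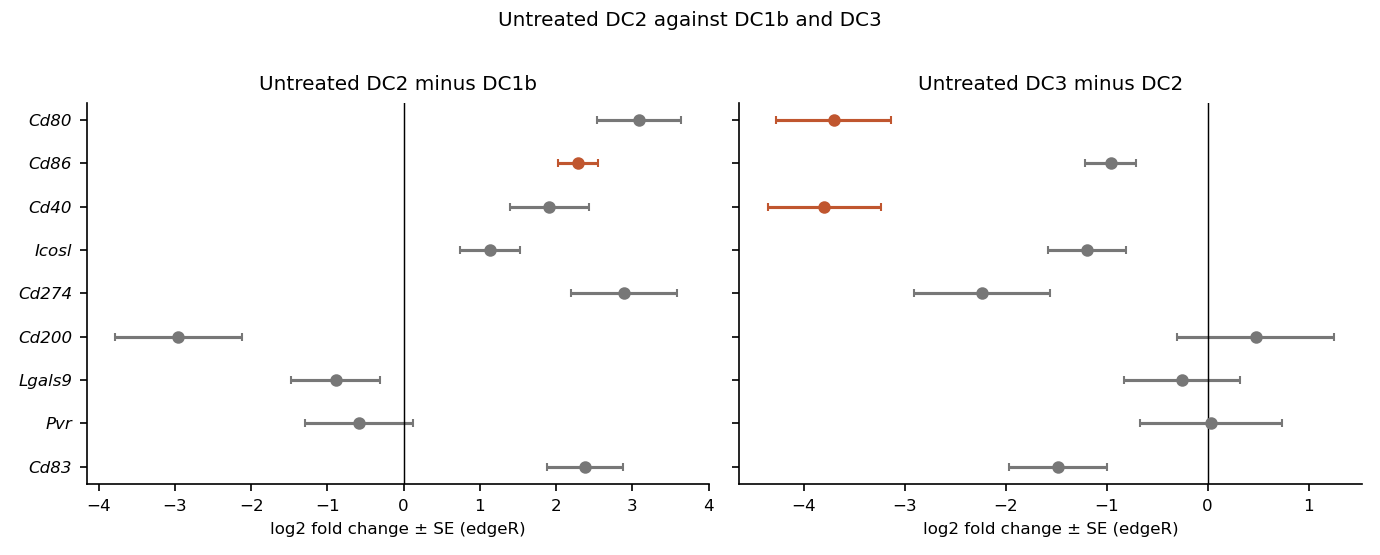
Fitted log2 fold changes with their SE between untreated populations, with members past the threshold in orange. Pdcd1lg2 is left out because it was at 0 in DC3. Cd86 passed against DC1b, at 2.29, and Cd80 and Cd40 passed against DC3, at -3.70 and -3.79.

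The remaining members did not pass in any comparison of untreated populations. Cd274 (PD-L1) was measured at 230 and 214 CPM in DC2, at 45.9 and 32.6 CPM in DC1a, at 34.0 and 29.3 CPM in DC1b and at 80.8 and 17.1 CPM in DC3. Both DC2 libraries were above the other 6, but the difference from DC1b had an adjusted p of 0.158 (edgeR log2 fold change 2.89, SE 0.70). When DC3 libraries were left out of the fit, an alternative chosen after the data were seen, the adjusted p was 0.0482. Pdcd1lg2 (PD-L2) had no counts in untreated DC1a and DC3 libraries. It was at 0.848 and 5.32 CPM in DC1b and at 33.6 and 5.09 CPM in DC2, so that DC1b and DC2 overlapped.

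Icosl was measured at 66.9 and 49.4 CPM in DC2, above the range of 24.7 to 33.2 CPM in the other 6 untreated libraries. Cd83 was at 1544 and 2972 CPM in DC2 and at 294 to 1003 CPM in the other 6. The adjusted p values of DC2 against DC1b were 0.293 for Icosl and 0.122 for Cd83 (edgeR).

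Cd200 ran the other way. It was measured at 125 and 128 CPM in DC1b, at 51.4 and 31.2 CPM in DC1a, at 25.9 and 4.62 CPM in DC2 and at 26.8 and 17.7 CPM in DC3. Both DC1b libraries were above the other 6, with an adjusted p of 0.214 against DC2 (edgeR log2 fold change -2.95 for DC2 minus DC1b, SE 0.83). The plasmacytoid DC markers named above were also highest in untreated DC1b, but the other populations had a different order than for Cd200. These markers summed to 101 to 143 CPM in DC1a, 142 to 200 CPM in DC2 and 216 to 301 CPM in DC3. Their part in the Cd200 level was not tested. Lgals9 was measured at 69.9 and 153 CPM in DC1b and at 27.5 to 76.5 CPM in the other 6, and Pvr at 16.7 to 71.1 CPM over all 8 libraries, with overlap between populations.

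No member passed in the other untreated comparisons. The share of all genes that passed there was 1.11% for DC1b against DC1a, 2.67% for DC2 against DC1a, 0.138% for DC3 against DC1a and 0.3% for DC3 against DC1b. Over the 6 comparisons, 29 of the 60 pairs of member and comparison had an unadjusted p under 0.05, beside 14.6% over all genes and the same comparisons, and DESeq2 called 25, beside 9.93%. The median fold change of the members in DC2 against DC1b was 2.099 on the log2 scale, beside -0.01 for all genes, and in DC3 against DC2 it was -1.34, beside 0 for all genes.

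In TLI treated mice no member passed between populations. Cd86 was at 478, 128 and 177 CPM in DC2 (pools 1, 3 and 4) and at 346, 287, 214 and 118 CPM in DC1b (pools 1 to 4), and the groups overlapped. The fitted difference was -0.10 on the log2 scale (SE 0.32, edgeR adjusted p = 0.953). Within pools the DC2 to DC1b ratio of Cd86 was 3.80 and 5.62 in untreated mice and 1.38, 0.599 and 1.51 in TLI pools 1, 3 and 4.

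Cd80 was higher in DC2 than in DC1b in each of the 3 TLI pools that held both, at 75.0, 26.0 and 38.4 CPM against 17.4, 0.526 and 4.20 CPM, with an adjusted p of 0.457 (edgeR log2 fold change 2.79, SE 1.12). Cd274, highest in DC2 in both untreated pools, was at 133, 57.4 and 32.1 CPM in TLI DC2 and at 50.8, 46.2, 128 and 115 CPM in TLI DC1b. DC2 was the higher of the 2 in pool 1 and the lower in pools 3 and 4. Cd40 was lowest in DC3 in all 4 TLI pools, at 10.2, 27.6, 0.105 and 2.76 CPM, as it was in both untreated pools.

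**Figure D3:**
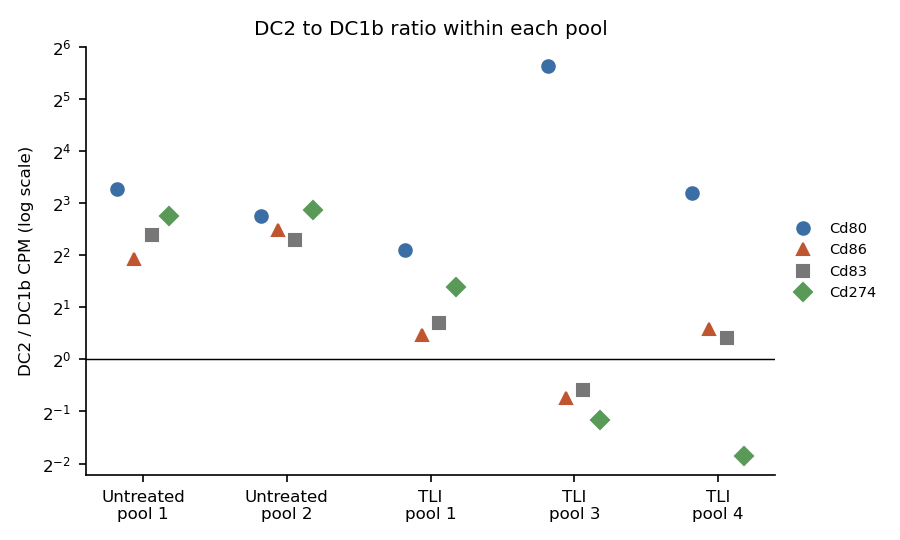
Ratio of DC2 to DC1b CPM within each pool for 4 ligands, on a log scale, with the line at 1. The untreated ratios lie between 3.80 and 9.67. The TLI ratios run from 0.599 to 1.51 for Cd86, from 0.666 to 1.61 for Cd83, from 0.278 to 2.62 for Cd274 and from 4.31 to 49.4 for Cd80. The other members are not drawn. In untreated pools 1 and 2 in turn, Cd200 lay below the line (0.207 and 0.0362), as did Pvr (0.286 and 0.941). Cd40 and Icosl lay above it in both pools, and Lgals9 and Pdcd1lg2 lay on both sides.

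Between TLI populations 0 of 60 pairs passed with edgeR, 18 had an unadjusted p under 0.05, beside 12.2% over all genes, and DESeq2 called 12, beside 7.17%. The share of all genes that passed was 1.46% for DC1b against DC1a, 2.97% for DC2 against DC1a, 0.634% for DC3 against DC1a, 0.165% for DC2 against DC1b, 1.02% for DC3 against DC1b and 1.21% for DC3 against DC2. Leaving out the TLI DC2 library of pool 1 gave 2 calls in DC2 against DC1a, Cd86 lower by a log2 fold change of -1.62 and Cd200 lower by -2.61 (edgeR adjusted p = 0.0445 and 0.018). That library is the only TLI DC2 library of batch 1. Its pool had a DC2 to DC1a ratio of Cd86 of 1.06, against 0.284 and 0.509 in pools 3 and 4.

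Whether TLI itself changed the ligands was asked in each population. All untreated libraries are in batch 1, so the batch term of this fit came from the TLI pools alone. A fitted change can thus differ from the change measured in either batch. With edgeR, 0 of 40 pairs passed, 10 had an unadjusted p under 0.05, beside 10.4% over all genes, and DESeq2 called 7, beside 4.62%. The share of all genes that passed was 0.0102% in DC1a, 0.413% in DC1b, 0.0612% in DC2 and 0.0255% in DC3. The nearest was Cd83 in DC1b cells (log2 fold change 2.01, SE 0.60, edgeR adjusted p = 0.171). It passed with the pool number as a block (2.07, edgeR adjusted p = 0.0274) and with no filter on low counts (0.0236), although TLI and untreated pools share only a number. By batch means, Cd83 in TLI DC1b was 2.52-fold higher than untreated in batch 1 and 1.74-fold lower in batch 2. Cd83 was at 294 and 603 CPM in untreated DC1b, at 839 and 1422 CPM in TLI batch 1 and at 367 and 149 CPM in TLI batch 2, so that both TLI batch 1 libraries and neither batch 2 library lay above both untreated ones. Neutrophil markers summed to 1405 to 20882 CPM in TLI DC1b libraries and to 1.16 to 20.1 CPM in untreated DC1b libraries, and their part in the DC1b values was not tested.

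Cd86 in DC2 cells was 3.21-fold lower after TLI by the group means, without overlap, and its adjusted p was 0.263 (edgeR log2 fold change -1.29, SE 0.36). Within batch 1, where untreated and TLI libraries can be compared directly, it was -0.75, from 1 TLI library. In TLI and untreated DC2 libraries in turn, neutrophil markers summed to 110 to 2322 and 0.467 to 1.55 CPM, monocyte and macrophage markers to 917 to 1353 and 314 to 590 CPM, and dendritic cell markers to 21193 to 35146 and 45190 to 49981 CPM, and their part in the Cd86 values was not tested. Cd200 in DC1b cells was 2.37-fold lower after TLI by the group means, at 25.9, 16.0, 67.9 and 104 CPM in pools 1 to 4. By batch means it was 6.04-fold lower in batch 1 and 1.48-fold lower in batch 2. With batch in the fit, its edgeR log2 fold change was -2.04 (SE 0.63, adjusted p = 0.196), and within batch 1 it was -2.25 (edgeR adjusted p = 0.328). The plasmacytoid DC markers were also lower in summed level in the TLI DC1b libraries than in the untreated ones. They summed to 176 to 206 CPM in TLI DC1b batch 1 and to 80.0 to 98.8 CPM in batch 2, where Cd200 was the higher. Their part in the Cd200 values was not tested.

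The difference between populations was also compared between treatments. For Cd86, the DC2 minus DC1b difference was lower in TLI than in untreated mice by a log2 fold change of -2.37 (SE 0.49), with an unadjusted p of 0.000159 and an adjusted p of 0.088 (edgeR). Its edgeR adjusted p was 0.0232 without the TLI DC2 library of pool 1 and 0.0384 without TLI pool 1. In both of these fits TLI DC2 had batch 2 libraries only. With all 23 libraries, 0 of 60 pairs passed, 10 had an unadjusted p under 0.05, beside 7.28% over all genes, and DESeq2 called 5, beside 2.95%. The share of all genes that passed was 0.122% for DC2 against DC1b, 0.0357% for DC1b against DC1a, 0.0255% for DC2 against DC1a, 0% for DC3 against DC1a, 0.0204% for DC3 against DC1b and 0.0357% for DC3 against DC2.

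More members passed between the batches of TLI pools than in any other comparison here, and this comparison was added after the data were seen. Cd83, Cd86, Cd40, Lgals9 and Pvr were lower in batch 2 (pools 3 and 4) and Cd200 was higher, which makes 6 of 10 members past the threshold beside 18.8% of 16400 genes. Over all genes the median log2 fold change was -0.26, and over the members it was -1.35. Batch and the pools of mice cannot be told apart here. The comparison is of 2 pools of mice against 2, since the libraries of a batch share them, and the adjusted p values treat libraries of a pool as independent.

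Cd83 had the largest such difference among those that passed. It was at 839 to 3728 CPM in the 7 batch 1 libraries, with a median of 1422 CPM, and at 100.1 to 367 CPM in the 8 batch 2 libraries, with a median of 240.1 CPM. The groups did not overlap (log2 fold change -2.85, SE 0.34, edgeR adjusted p = 0.00028). Untreated libraries, at 294 to 2972 CPM, overlapped both.

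Lgals9 was at 65.9 to 232 CPM in batch 1 (median 137) and at 6.08 to 108 CPM in batch 2 (median 29.3), with overlap (log2 fold change -2.22, SE 0.47, edgeR adjusted p = 0.00676). Pvr was at 13.8 to 53.1 CPM in batch 1 (median 25.3) and at 0.241 to 17.3 CPM in batch 2 (median 4.38), with an adjusted p of 0.036. All 8 batch 2 libraries and 6 of 7 batch 1 libraries lay below both untreated libraries of their population for Pvr. These libraries come from 4 pools, and no such count over all genes is given here. With batch in the fit, Pvr did not pass for TLI against untreated in any population. Its log2 fold changes there were 0.0625 in DC1a, -0.0829 in DC1b, -0.998 in DC2 and -0.918 in DC3. The edgeR unadjusted p values, in that order, were 0.958, 0.944, 0.386 and 0.427. Between the TLI batches, Cd40 (log2 fold change -2.12, SE 0.65) and Cd86 (-0.86, SE 0.22) had edgeR adjusted p values of 0.0375 and 0.0179.

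Cd200 was at 8.09 to 29.2 CPM in batch 1 (median 22.2) and at 16.0 to 109 CPM in batch 2 (median 64.0), and it was higher in batch 2 (log2 fold change 1.56, SE 0.34, edgeR adjusted p = 0.00866). Icosl (adjusted p = 0.0943), Cd80 (0.325), Cd274 (0.441) and Pdcd1lg2 (0.511) did not pass in edgeR. The erythroid markers named above were higher in batch 1 in each population, as were the T-cell markers, and the 6 NK-cell markers summed to 930.4 to 3837 CPM in TLI DC3 batch 1 and to 41.8 to 83.7 CPM in TLI DC3 batch 2, and their part in these differences was not tested. The dendritic cell markers were lower in batch 2 in each population, at 19582 to 23885 CPM in DC1a, 7764 to 12231 CPM in DC1b, 21193 to 22946 CPM in DC2 and 9742 to 11534 CPM in DC3, against 59946 to 82842, 23347 to 42029, 35146 and 18955 to 60738 CPM in batch 1, and their part was not tested either. With the 6 erythroid marker genes left out of the totals 6 members still passed, and with TLI pool 1 left out 3 passed, namely Cd83, Lgals9 and Cd200.

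**Figure D4:**
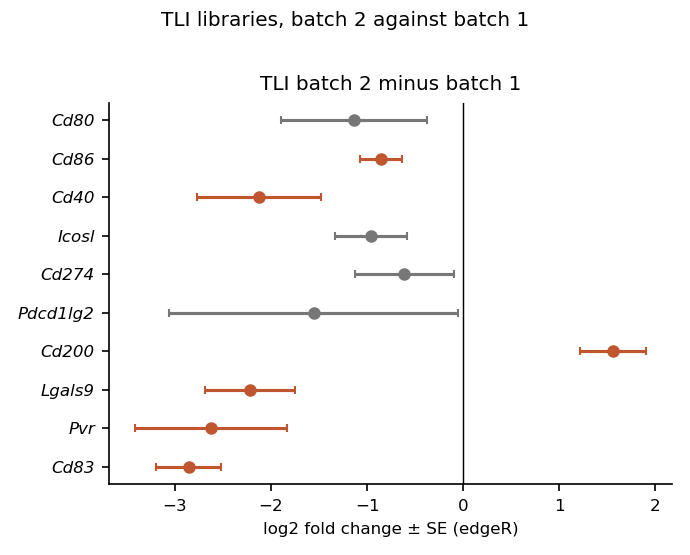
Fitted log2 fold changes with their SE between TLI batch 2 and TLI batch 1 for the 10 ligands, with the members past the threshold in orange. Cd83 lies at -2.85 and Cd200 at 1.56.

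Related genes were followed as lists. Beside every list below, the share of all genes that passed ran from 0.138% to 2.67% in the untreated comparisons and from 0.165% to 2.97% between TLI populations. It ran from 0.0102% to 0.413% for TLI against untreated and from 0% to 0.122% in the interactions. In counts between populations, higher and lower refer to the population later in the order DC1a, DC1b, DC2, DC3. A gene high in 1 population can thus count both ways. Among 22 genes of CD40 and NF-kB signalling, the untreated comparisons gave 4 calls higher and 1 lower of 132, with Rel, an NF-kB subunit, higher in DC2 than in DC1a (log2 fold change 1.56), higher than in DC1b (2.16) and lower in DC3 than in DC2 (-2.25, edgeR adjusted p = 0.0363, 0.0374 and 0.0226). Rel was at 1073 to 1335 CPM in untreated DC2 and at 212 to 356 CPM in the other untreated libraries. Nfkb1 and Nfkbia, the latter an inhibitor of NF-kB, were higher in DC2 than in DC1a by log2 fold changes of 1.77 and 1.44. The same list gave 2 calls higher and 1 lower of 132 between TLI populations, and 0 of 88 for TLI against untreated. In TLI batch 2 against batch 1 it gave 4 calls of 22, all lower, close to the 18.8% of all genes, with a list median of -0.71 beside -0.26 for all genes, and with Nfkbia at -2.38 (edgeR adjusted p = 0.000314).

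Among the genes of DC maturation, 2 of 126 pairs passed between untreated populations. Cacnb3 was lower in DC1b than in DC1a (log2 fold change -5.94, edgeR adjusted p = 0.0232). Ccr7, the receptor that leads DCs to lymph nodes, was lower in DC3 than in DC2 (-2.25, edgeR adjusted p = 0.0482). Between TLI populations 7 of 132 passed. Of these, 2 were lower in DC2 than in DC1a, and the others lower in DC3 than in another population. Marcksl1 was lower in DC3 than in DC1a (-3.18). For DC1b against DC1a 0 passed, with a list median of 0.287 beside 0.00929 for all genes. Between TLI batches 4 of 22 passed lower, with Ccr7 at -3.77, and 1 higher, beside 18.8% of all genes, with a list median of -1.25, and 0 of 88 passed for TLI against untreated. In the latter the list median was 0.48 in DC1a, 1.88 in DC1b, -0.83 in DC2 and -0.46 in DC3. The medians of all genes there lay between -0.05 and 0.15.

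Other T-cell ligands gave 6 calls higher and 3 lower of 126 in untreated comparisons. Lgals1, a galectin that restrains T cells, was at 1364 and 1769 CPM in untreated DC1b and at 159 and 169 CPM in untreated DC2, lower in DC2 by a log2 fold change of -3.19 (edgeR adjusted p = 0.00634). After TLI this order differed, with 321 to 640 CPM in DC1b and 509 to 1542 CPM in DC2, and the interaction had a log2 fold change of 3.88 (edgeR adjusted p = 0.0188). In TLI against untreated 2 of 88 pairs passed, both higher in DC1b cells, Fgl2 by 1.87 and Lgals3 by 1.86. Between TLI populations 6 passed higher and 1 lower of 114, and between TLI batches 2 passed higher and 2 lower of 19, beside 18.8% of all genes (list median -1.13). Over the interactions of all 5 lists, 1 other T-cell ligand (Lgals1) passed higher and 1 gene of DC maturation (Cacnb3) passed lower.

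The interferon-gamma list, which leads to the PD-1 ligands, gave 1 call higher and 3 lower of 108 between untreated populations. The 3 lower calls were of Cxcl9, a chemokine induced by interferon-gamma, and in all 3 DC1a was the higher population. Cxcl9 was at 431 and 449 CPM in untreated DC1a and at 15.7 and 18.9 CPM in untreated DC2. The list gave 3 lower of 108 between TLI populations and 0 of 72 for TLI against untreated. Between TLI batches it gave 3 lower of 18, beside 18.8% of all genes (list median -0.82). The T-cell receptors of the ligands gave 1 call higher and 2 lower of 48 between untreated populations, 0 of 60 between TLI populations, 0 of 40 for TLI against untreated and 4 lower of 10 between TLI batches, beside the same 18.8%. Of these, Ctla4 was at 16.1 and 17.6 CPM in untreated DC1a, and Icos at 43.3 and 68.9 CPM in untreated DC2, where Cd3e was at no more than 0.0814 CPM.

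Across the 8 group means, the pair of members most alike was Cd86 and Cd83 (Pearson r = 0.977 of log2(CPM + 1), given as a description). The next was Icosl and Cd83, at 0.757, and the least alike were Cd86 and Lgals9, at -0.64. Among 10167 genes with a mean of at least 5 CPM, the gene most like Cd80 was Ifngr2 (r = 0.956), most like Cd40 was Bcl2a1d (0.987), most like Cd274 was Tnfaip2 (0.963) and most like Cd200 was Rela (0.961). For Icosl it was Sbno2 (0.966), for Pdcd1lg2 Clec5a (0.977), for Lgals9 Tmx4 (0.975) and for Pvr Rab12 (0.983). These points share libraries and depth.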

How the data were processed

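The labels have cells sorted straight into reaction buffer, whereas the study's methods describe a lysis buffer and RNA purification first; cDNA was made with a SMARTseq v4 kit. Per the labels and the study's methods, the authors used Trimmomatic, HISAT2 and StringTie on GRCm38, and DESeq2 for their own tests. The deposited values are estimated counts per gene in whole numbers, with no normalization. Symbols and exon lengths came from GENCODE vM21 for 47224 of 47729 identifiers, and CPM was each count over the library total. Tests used edgeR 4.0.16 in R 4.3.3 (TMM, filterByExpr, quasi-likelihood, Benjamini-Hochberg over all genes tested, threshold 0.05). Untreated libraries were fitted alone, TLI libraries with batch as a term, and all 23 with batch for TLI against untreated. Fits were tried on simulated data that had less spread than these libraries and no batch or pool difference. That trial does not show how the fits perform at the spread seen here. DESeq2 1.42.0 was an alternative. The members, lists and tests were chosen with earlier results of these data known. All 10 members are named. From each list up to 4 genes per family of comparisons are named, those past the threshold most often, with a mean of at least 5 CPM. Nothing says whether pools were separate beyond the labels, so p values measure the spread between these pools. Same-numbered libraries of a treatment are 1 pool in the labels, and their residuals correlated between -0.015 and 0.135.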

Additional observations from a re-analysis of the deposited data

Results flagged for a closer look

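Among 30 groups of 4 libraries (10 members in TLI DC1a, DC1b and DC3), 3 had a library far from the others by Dixon's test at the 95% level, which by chance picks out about 1 in 20. Cd40 in TLI DC1b pool 2 was at 47.2 CPM, above the other 3 libraries. Pdcd1lg2 in TLI DC1b pool 3 was at 19.6 CPM, above the other 3, and Pdcd1lg2 in TLI DC3 pool 1 was at 6.68 CPM, where the others were at no more than 0.259 CPM.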

How the results depend on the processing

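Between untreated populations 3 pairs of member and comparison passed. This was 25 with DESeq2, 11 with no filter on low counts, 1 in a fit of all 23 libraries, 0 with the pool as a replicate block, and 0 to 2 with each library left out. Cd86 kept its call without either DC3 library and Cd40 without either DC1b library. Between TLI populations, where 0 passed, there were 12 with DESeq2, 1 with no filter, 2 in a fit of all 23 libraries, 1 without TLI pool 1 and 0 to 2 with each library left out. For TLI against untreated, where 0 passed, there were 7 with DESeq2, 1 with no filter, 1 with the pool as a replicate block (Cd83 in DC1b, adjusted p = 0.0274), 3 with TLI pools 3 and 4 alone, all in DC2 cells and confounded with batch, and 0 with each library left out. For the interaction, where 0 passed, there were 5 with DESeq2, 1 without TLI pool 1 and 0 to 1 with each library left out. Between TLI batches, where 6 passed, there were 3 without TLI pool 1 and 3 to 6 with each library left out, the 3 being without TLI DC2 pool 1. Cd83, Lgals9 and Cd200 kept their calls in all 15 such fits. Pvr kept its call in 8 and Cd40 in 6 of them. The block changed no other call in the untreated, TLI, TLI against untreated and interaction comparisons, and it could not be fitted between TLI batches because each pool lies in 1 batch. The correlation of Icosl with Sbno2 over TLI group means alone was -0.013. The cause of these differences was not tested, and 2 libraries a group limit what can pass. The share of all genes that passed is given above for DESeq2 but not for the other settings here. Their counts thus cannot be set against what each setting calls over all genes.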
